A study of Junonia coenia with 20 samples.

Results

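The 100 transcripts with the highest mean level in pupal hind wings of the buckeye butterfly Junonia coenia were described over 4 stages and both seasonal colour morphs. They were chosen by their mean deposited RPKM (reads scaled by transcript length and by library size) over the 12 pupal libraries, from a table of 16251 transcripts, of which they make up 0.615%. The groups were Rosa and Linea, each sampled as 5th instar imaginal discs, as pupal wings before pigment, and as wings in early (yellow) and late (orange to red) ommochrome deposition. Each morph and stage had 2 libraries, with no further treatment or allele in any group. Per the labels' protocols, the butterflies came from a North Carolina stock kept in incubators on artificial diet at 21 °C with 8 h of light or at 27 °C with 16 h. The labels do not state which regime gave which morph, so a morph difference cannot be told apart from one of temperature and day length. They also do not say whether a library is 1 animal or a pool, so a p-value below reflects the spread from library to library, part of which may be technical.

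The pupal hind wing is a folded sheet of epidermis whose cells differentiate into scale cells, socket cells and the epidermal cells between them. A scale is the flattened, cuticle-covered outgrowth of a single cell, and it is first built around actin bundles and later filled with pigment. Ommochromes, the yellow, red and brown tryptophan-derived pigments of nymphalid wings, appear in scales late in pupal life, after the cuticle of the scale has begun to form. In insect epidermis, transcripts of cuticle proteins can reach very high levels while cuticle is laid down. The deposited table lists identifiers of a de novo assembly with no gene names, lengths or sequences, so no role is given to any transcript below, no gene list was counted, and the labelled tissue could not be checked against markers. RPKM is a level per length, so levels of different transcripts can be set side by side, but in whole wings fewer cells of a type and less RNA per cell cannot be told apart.

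All 100 transcripts passed the filter of 1 RPKM in at least 2 libraries, and 15798 transcripts were tested in all. The summed RPKM of a library lay between 487429 and 832300, and read depth is unknown, since RPKM keeps no read count. Levels below are scaled RPKM, the deposited value divided by a factor per library that brings the median transcript to a common level. The factors were 0.578 to 1.42 in pupal libraries and 1.67 to 1.81 in larval ones. Tests are moderated limma tests on log2(scaled RPKM + 1), with p-values adjusted over all 15798 transcripts. A call is an adjusted p under 0.05. Replicate numbers do not enter these main fits, and fits with the number as a block are given as alternatives. The libraries labelled Rosa early ommochrome stood apart from the other pupal libraries for 15 of the 100 transcripts, which are described further on. Their stage rests on the labels alone and could not be checked here, so every early ommochrome value in Rosa, and every step to or from that stage, takes those labels as given.

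In pupal wings these 100 transcripts held about as much of the summed RPKM as all other listed transcripts together. Their share of the summed RPKM was 14.4% ± 2.17 in larval discs, 54.7% ± 1.97 in pre-pigment wings, 47.7% ± 8.94 at early ommochrome and 46.7% ± 6.82 at late ommochrome (SD, n = 4 each). Since the pupal libraries chose them, this difference follows from the choice and is given with no test. Among the pupal libraries the share was lowest in Rosa early ommochrome replicate 1, at 35.4%, and highest in Linea pre-pigment replicate 1, at 57.1%. The 10 highest transcripts alone held 2.82% ± 0.86 in larvae, 28.3% ± 4.22 in pre-pigment wings, 21.0% ± 6.53 at early ommochrome and 20.2% ± 7.34 at late ommochrome (SD, n = 4 each). The other 90 held 11.6% ± 2.54, 26.4% ± 3.00, 26.7% ± 3.31 and 26.5% ± 1.89 at the same stages (SD, n = 4 each).

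**Figure D1:**
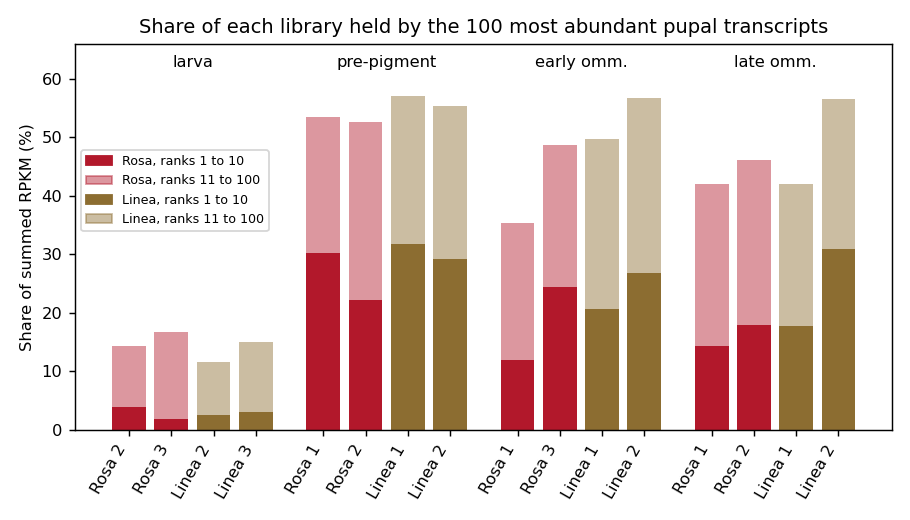
Share of each library's summed RPKM (y axis, percent) held by the 100 transcripts, one bar per library, Rosa bars red and left of the tan Linea bars within each stage. The dark part of a bar is the 10 highest transcripts and the pale part those ranked 11 to 100. Pupal bars reach 35.4% to 57.1% and larval bars 11.5% to 16.8%, and the pale part varies less between pupal libraries than the dark part.

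Membership was not uniform from library to library. Between 64 and 86 of the 100 were among a given pupal library's own 100 highest transcripts, and between 26 and 34 were among those of a larval library. In all 12 pupal libraries 21 of them were among the 100 highest, and 94 were so in at least 6. The 3 that were so in 3 pupal libraries only were JC_0029750, JC_0032076 and JC_0032795. The highest over the lowest pupal library was under 3-fold for 12 transcripts, under 5-fold for 28 and over 100-fold for 29, with a median of 16.0-fold. These ratios were taken for the 100 only, so they do not set the 100 apart from other transcripts.

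JC_0048950 ranked first, with a mean of 34083 RPKM over the pupal libraries. It stood at 2685 and 61301 scaled RPKM in Rosa pre-pigment wings, against 9916 and 98631 in Linea pre-pigment wings. At early ommochrome it was 36753 and 74256 scaled RPKM in Rosa wings, against 32824 and 32115 in Linea wings, and at late ommochrome 7593 and 50301 scaled RPKM in Rosa wings, against 7501 and 87531 in Linea wings. At pre-pigment and at late ommochrome the libraries numbered 2 were the high ones in both morphs and those numbered 1 the low ones, while the morphs overlapped. Larval levels were 1006 and 116 scaled RPKM in Rosa larvae, against 322 and 853 in Linea larvae. It was the highest of the 100 in 7 of the 16 libraries.

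JC_0033741, the next by mean, had its highest mean in pre-pigment wings. It reached 114817 and 6036 scaled RPKM in Rosa pre-pigment wings, against 87100.4 and 47567 in Linea pre-pigment wings. At early ommochrome it was 1733 and 7161 scaled RPKM in Rosa wings, against 534 and 489 in Linea wings, and at late ommochrome 3105 and 2148 scaled RPKM in Rosa wings, against 12181 and 50478 in Linea wings. Its pupal level ranged 235-fold between libraries, and 76.7% of the summed pupal level lay in pre-pigment wings. It was already high in larvae, at 7083 and 1574 scaled RPKM in Rosa larvae, against 228 and 3833 in Linea larvae, where it ranked 10 of all transcripts. Early ommochrome against pre-pigment gave a log2 difference of -4.94 ± 1.10 (SE, adjusted p = 0.0788 by limma), short of a call.

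Of the remaining 8 of the highest 10, JC_0109807 (mean 17189.8 RPKM) was high throughout, with a lowest pupal library at 7259, a median of 20277 and a highest of 41004 scaled RPKM. JC_0109883 (mean 6989 RPKM) was the steadiest of the 10, with a lowest pupal library at 5261, a median of 7766 and a highest of 9882 scaled RPKM. JC_0021829 (mean 8190.0 RPKM) had a lowest pupal library at 3872, a median of 8542 and a highest of 16352 scaled RPKM. These 3 varied by 5.65-fold, 1.88-fold and 4.22-fold over the 12 pupal libraries. JC_0021829 and JC_0109883 were also among the 15 highest larval transcripts by mean RPKM, at ranks 8 and 15.

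JC_0091113 (mean 11923 RPKM) was uneven within groups, at 7912 and 1615 scaled RPKM in Rosa pre-pigment wings, against 29846 and 3976 in Linea pre-pigment wings, and at 342 and 5880.0 scaled RPKM in Rosa late ommochrome wings, against 15241 and 9933 in Linea late ommochrome wings. JC_0110539 (mean 5855 RPKM) was at 14246 and 5039.9 scaled RPKM in Rosa pre-pigment wings, against 25766 and 11063 in Linea pre-pigment wings. At early ommochrome it was at 857 and 11697 scaled RPKM in Rosa wings, against 7115 and 5878 in Linea wings, and at late ommochrome at 83.5 and 1647 scaled RPKM in Rosa wings, against 2787 and 1365 in Linea wings. All 4 late libraries of JC_0110539 lay below all 4 pre-pigment ones, yet late against pre-pigment was -3.81 ± 1.04 (SE, adjusted p = 0.0941 by limma), short of a call. The last 3 of the 10, JC_0091645, JC_0047771 and JC_0047853, shared a gap in Rosa early ommochrome wings and are taken up below.

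**Figure D2:**
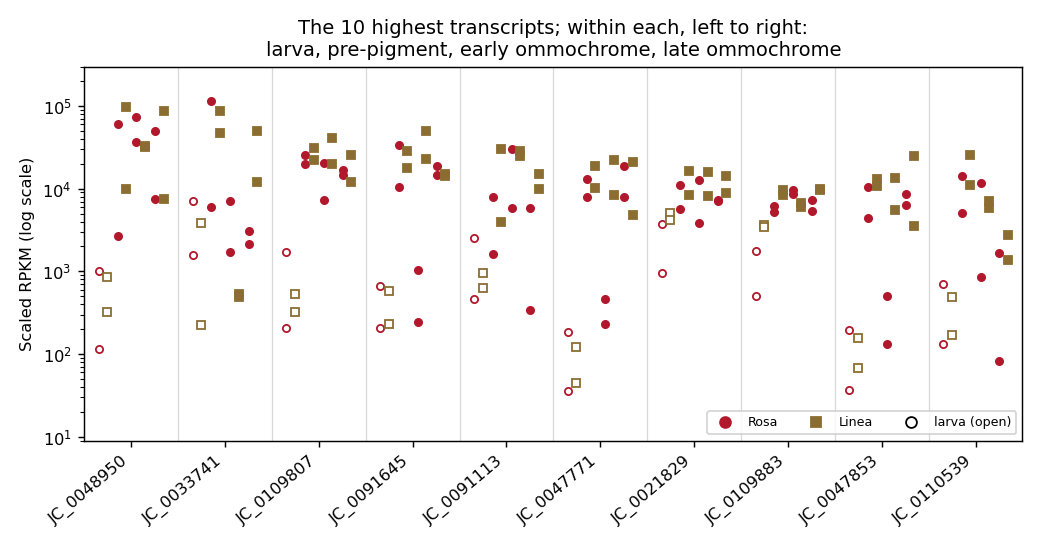
Scaled RPKM (y axis, log scale) of the 10 highest transcripts in all 16 libraries; within each transcript the stages run from larva (open symbols) to late ommochrome, with Rosa circles left of Linea squares. JC_0091645, JC_0047771 and JC_0047853 drop in both Rosa early ommochrome libraries, and JC_0109883 lies in a narrow band in every pupal library.

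The lower edge of the set was not a gap. Ranks 99 and 100 were JC_0091843, with a pupal mean of 691 RPKM, and JC_0111884, with 684 RPKM. Just outside were JC_0091775 at 669 RPKM and JC_0091765 at 664 RPKM, so the last member exceeded the next transcript 1.02-fold. The top of the set was steep, since the pupal mean of rank 1 was 34083 RPKM and that of rank 10 was 5855 RPKM.

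Some transcripts owed much of their pupal mean to a single library. In 15 of the 100, a single pupal library held over 25% of the summed scaled level, where an even spread would give 8.33%. The same held for 13.8% of the next 900 by pupal mean. The median share of the highest library was 18.5% in the set and 16.3% in the next 900. JC_0032795 was at 65.6 and 19799 scaled RPKM in Rosa early ommochrome wings, against 384 and 646 in Linea early ommochrome wings, so Rosa early ommochrome replicate 3 alone held 75.1% of its pupal level. Its other 11 pupal libraries lay between 13.9 and 2909 scaled RPKM. JC_0032076 was at 10798 and 163 scaled RPKM in Rosa early ommochrome wings, against 0.0118 and 0.186 in Linea early ommochrome wings, and Rosa early ommochrome replicate 1 held 63.3% of its pupal level. In both, the other replicate of the same group was low.

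JC_0023857, JC_0023658 and JC_0091643 followed, with 45.6%, 37.2% and 35.9% of their pupal level in a single library. JC_0023658 was at 5500.5 and 1204 scaled RPKM in Rosa late ommochrome wings, against 15.5 and 268 in Linea late ommochrome wings, so both Rosa libraries lay above both Linea ones and the replicates lay apart in each morph. At the other end, 8 transcripts had under 12.5% of their pupal level in any library. JC_0012790 had a lowest pupal library at 485, a median of 928 and a highest of 1077 scaled RPKM, with 10.3% in the highest. JC_0091851 had a lowest pupal library at 818, a median of 1262 and a highest of 1445 scaled RPKM, JC_0044676 at 617, a median of 788 and a highest of 1138 scaled RPKM and JC_0049247 at 664, a median of 803 and a highest of 1162 scaled RPKM. All 8 differed at most 2.23-fold between any 2 pupal libraries, over both morphs and all 3 pupal stages.

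Replicate libraries differed more for these transcripts than for the table as a whole. The median difference between the 2 libraries of a group ran from 0.58 log2 units in Linea early ommochrome to 1.62 in Rosa larvae for the set. It was 0.47 to 0.82 for all transcripts tested and 0.50 to 0.82 for the next 900 by pupal mean. Over 8-fold differences between replicates occurred in Rosa in 5 of the 100 in larvae (3.67% of all transcripts tested), 15 in pre-pigment wings (8.93%), 14 at early ommochrome (2.61%) and 13 at late ommochrome (3.16%). In Linea the counts were 3 (1.51%), 8 (3.11%), 0 (2.29%) and 6 (3.61%) at the same stages. These counts are over single pairs of libraries and were not tested. A single high library can carry a pupal mean, so larger gaps between pupal replicates can partly follow from the choice.

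Most of the set was far lower in larval discs than in pupae, though 61 of the 100 were still among the 1000 highest larval transcripts. The pupal mean exceeded the larval mean by at least 8-fold in 60 of the 100 (10.1% of all transcripts tested), by at least 4-fold in 70 (16.1%) and by at least 16-fold in 52 (6.44%). All such ratios are of scaled RPKM. The larval factors (1.67 to 1.81) exceed the pupal ones (0.578 to 1.42), so deposited values give lower pupal-to-larval ratios. The median ratio was 21.7-fold, a log2 ratio of 4.44, against a median log2 ratio of -0.05 over all transcripts tested. In 37 of the 100 (6.97% of all tested), every pupal library lay above every larval one, and in 0 (8.03%) did the reverse hold. The choice by pupal level used these contrasts, so the counts are descriptive and support no test. For the same reason, the tested step to pre-pigment wings from larval discs is given as a count only, with 68 of the 100 higher (13.3% of all tested) and 1 lower (14.4%), JC_0086963. With the replicate number as a block 65 were higher and 0 lower. With RPKM as deposited, where the median transcript stood at -1.09 log2 units in this step, the counts were 56 higher and 9 lower. Over all 15798 tested, 7935 were then called in either direction, against 4381 in the main fit. Quantile normalization gave 60 higher and 8 lower, with the median transcript at -0.17 and 4481 called over all tested.

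The lowest larval means of the set belonged to JC_0032076, JC_0091851, JC_0049588, JC_0066677 and JC_0032639. JC_0091851 had a pupal mean of 1157 scaled RPKM, 106-fold above its larval mean, and its larval level was 18.6 and 4.03 scaled RPKM in Rosa larvae, against 9.03 and 12.1 in Linea larvae. JC_0049588 had a pupal mean of 929 scaled RPKM, 82.5-fold above its larval mean, and its larval level was 11.0 and 4.58 scaled RPKM in Rosa larvae, against 11.2 and 18.2 in Linea larvae. JC_0066677 had a pupal mean of 1169 scaled RPKM, 83.8-fold above its larval mean, and its larval level was 30.9 and 6.60 scaled RPKM in Rosa larvae, against 4.68 and 13.6 in Linea larvae. Neither morph was consistently the higher in these larval levels, and JC_0032076, listed at 0 in a Rosa larval library, is given no fold, as a single pupal library carries its mean.

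The larval libraries were not alike for the transcripts far lower in larvae. Among the 60 with at least an 8-fold ratio, Rosa larva replicate 2 held the highest larval value in 35 and Linea larva replicate 3 in 22. Rosa larva replicate 3 held the lowest value in 42 and Linea larva replicate 2 in 14. Among all 1588 transcripts past the same ratio, the shares were 40.7% and 32.3% for the highest and 41.6% and 28.3% for the lowest value. The median larval level, as a percentage of a transcript's pupal mean, was 3.50% in Rosa larva replicate 2 and 0.91% in Rosa larva replicate 3, against 1.38% in Linea larva replicate 2 and 3.10% in Linea larva replicate 3. Libraries of the same morph thus lay on opposite sides, and among the other 40 transcripts Rosa larva replicate 2 was the highest in 8 and Rosa larva replicate 3 the lowest in 9.

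Among the 100 were 32 of the 100 highest larval transcripts, including 6 of the 10 that were highest in pupae. JC_0049716, JC_0049251, JC_0049312, JC_0091916 and JC_0086963 had the highest scaled larval means. JC_0049716 had a lowest pupal library at 2344, a median of 5493 and a highest of 9768 scaled RPKM. Its larval level was 3928 and 7926 scaled RPKM in Rosa larvae, against 3594 and 7703 in Linea larvae, so it was abundant in every library. Its scaled pupal mean was 1.01 times the larval one, a ratio that is lower in deposited RPKM. The pupal mean of JC_0049251 was 1.12 times its larval mean, and its larval level was 3001 and 7758 scaled RPKM in Rosa larvae, against 1899 and 3700.2 in Linea larvae. That of JC_0049312 was 0.492 times its larval mean, with a larval level of 2253 and 8929.8 scaled RPKM in Rosa larvae, against 1650.2 and 2582 in Linea larvae. JC_0091916 was at 4294 and 5743 scaled RPKM in Rosa larvae, against 2809.8 and 2303 in Linea larvae. It was low in both pre-pigment libraries numbered 1 (1.41 in Rosa and 116 in Linea) but not in those numbered 2 (3957 in Rosa and 8089 in Linea).

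JC_0086963 had the lowest pupal-to-larval ratio of the set. Its pre-pigment level was 753 and 983 scaled RPKM in Rosa wings, against 746 and 1411 in Linea wings, and its larval level was 1319.9 and 4060.4 scaled RPKM in Rosa larvae, against 2728 and 6258 in Linea larvae. The larval mean was 3.34-fold above the pupal mean. In 18 of the 100 (46.8% of all transcripts tested) both means were within 2-fold, in 9 (51.2%) the larval mean was above the pupal mean, and in 3 (25.4%) it was at least 2-fold above. Those 3 were JC_0086963, JC_0049312 and JC_0092107, the last named after its values were seen. These counts are of scaled means, and deposited values shift the ratios towards larvae. JC_0012211, also named after its values were seen, was at 2060 to 4323 deposited RPKM in larval libraries, against 243 to 1627 in pupal ones.

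**Figure D3:**
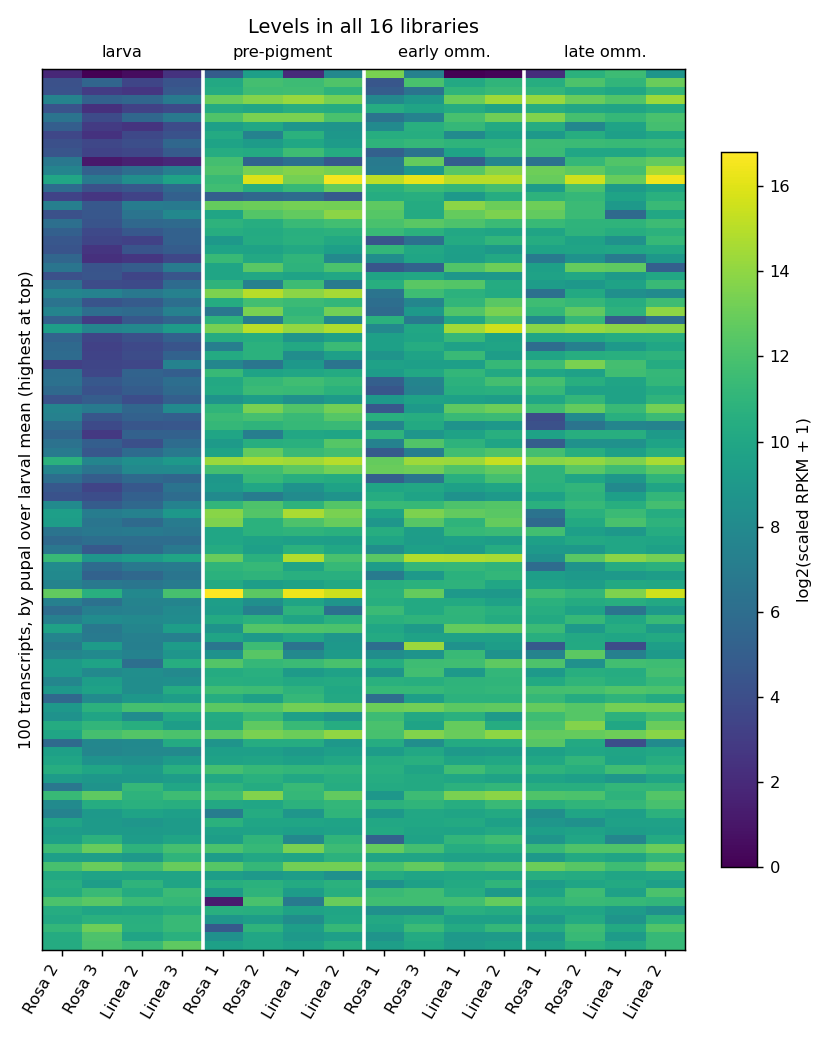
Level of each of the 100 transcripts (rows) in all 16 libraries (columns, Rosa left of Linea within each stage), coloured by log2(scaled RPKM + 1), with rows ordered by the ratio of the pupal to the larval mean, highest at the top. The upper rows are dark in the 4 larval columns and light in the pupal ones, the lowest rows are light in all columns, and scattered dark cells mark single libraries or the Rosa early ommochrome pair.

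Within the pupal stages few transcripts of the set changed by the test. By stage mean, 4 were highest in larvae, 37 in pre-pigment wings, 22 at early and 37 at late ommochrome. Among all transcripts tested the shares were 41.7%, 21.5%, 18.3% and 18.5%. Early ommochrome against pre-pigment called 1 of the 100 higher (0.228% of all tested) and 0 lower (0.354%). At an unadjusted p under 0.05 the counts were 7 higher (6.06%) and 16 lower (4.42%). They were 14 and 16 with RPKM as deposited, where the median transcript stood at 0.36 log2 units and these shares do not apply. Late against early ommochrome called 0 (0%), with 14 higher (1.99%) and 7 lower (3.35%) at an unadjusted p under 0.05. Of the members in these unadjusted counts, 13 of the 16 lower ones in early against pre-pigment and 12 of the 14 higher ones in late against early belong to the 15 transcripts low in the Rosa early libraries, which enter both steps. In Linea alone, with both Rosa early libraries left out, early against pre-pigment called 0 (0.0826%), with 2 higher (3.25%) and 4 lower (2.96%) at an unadjusted p under 0.05. Late against early called 0 (0.0127%) in Linea alone, with 5 higher (1.38%) and 9 lower (4.19%), and 0 of the 15 were in any of these 4 counts. These fits set 2 libraries against 2. The lowest adjusted p of late against early over both morphs was that of JC_0110484, also 1 of the 15, with a log2 difference of 2.38 ± 0.54 (SE, adjusted p = 0.474 by limma). In Linea alone its log2 difference was -0.17 ± 0.77 (SE, adjusted p = 1 by limma), so the direction over both morphs rests on Rosa, where it was at 2827 and 986 scaled RPKM at late ommochrome, against 34.5 and 82.7 at early ommochrome. Late ommochrome against pre-pigment, which shares the pre-pigment libraries with the first of these steps, called 4 higher (0.874%) and 2 lower (1.39%), with 8 higher (7.11%) and 16 lower (7.35%) at an unadjusted p under 0.05. With RPKM as deposited the calls were 5 higher and 2 lower, with 377 called over all tested, against 358 in the main fit. The unadjusted counts were 19 higher and 6 lower, with no share of all transcripts given for that setting. The median transcript then stood at 0.35 log2 units in this comparison. The choice used these same pupal libraries, so a transcript could enter through the stage where it was high. Deposited levels of JC_0109911 were 14.9 to 45.9 RPKM in pre-pigment wings, against 684 RPKM for the mean of the last member. In the same wings those of JC_0023857 were 51.0 to 396 RPKM and those of JC_0049206 84.2 to 231 RPKM. Those of JC_0092304 were 19.3 to 230 RPKM at late ommochrome. Counts set beside the shares of all transcripts are therefore descriptive, and the stage p-values of single members come from libraries that the choice also used.

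JC_0109911 rose with ommochrome deposition. It was at 33.5 and 48.2 scaled RPKM in Rosa pre-pigment wings, against 57.1 and 25.8 in Linea pre-pigment wings. At early ommochrome it was at 1347 and 1459.8 scaled RPKM in Rosa wings, against 547 and 1352 in Linea wings, and at late ommochrome at 1878 and 2381 scaled RPKM in Rosa wings, against 857 and 1603 in Linea wings. Each of the 8 ommochrome-stage libraries lay at least 9.59-fold above each pre-pigment library. The log2 difference was 4.77 ± 0.48 (SE, adjusted p = 0.000669 by limma) at early and 5.29 ± 0.48 (SE, adjusted p = 0.00021 by limma) at late ommochrome against pre-pigment. Its larval level was 9.58 and 5.42 scaled RPKM in Rosa larvae, against 9.59 and 34.9 in Linea larvae, a range that overlaps the pre-pigment one. Both calls were kept in every alternative that used both morphs. In Linea alone, with 2 libraries a stage, early against pre-pigment was 4.45 ± 0.70 (SE, adjusted p = 0.0719 by limma).

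JC_0023857 also rose. At late ommochrome it was at 3052 and 11223 scaled RPKM in Rosa wings, against 3503 and 1273 in Linea wings. In pre-pigment wings it was at 213 and 95.6 scaled RPKM in Rosa wings, against 493 and 88.2 in Linea wings, so all 4 late libraries lay above all 4 pre-pigment ones. Its log2 difference was 4.34 ± 0.86 (SE, adjusted p = 0.0244 by limma). The call was lost without Linea pre-pigment replicate 2, either Linea late replicate or Rosa late replicate 2 (adjusted p of 0.051 to 0.107). JC_0049206 rose to 1409.5 ± 788 scaled RPKM at late ommochrome, against 268 ± 110.0 at pre-pigment (SD, n = 4 each). The late levels were 769.8 and 1888 scaled RPKM in Rosa wings, against 712 and 2269 in Linea wings, and the pre-pigment ones 262 and 131 scaled RPKM in Rosa wings, against 281 and 399.8 in Linea wings, again without overlap. Its log2 difference was 2.31 ± 0.47 (SE, adjusted p = 0.0256 by limma), lost without either Linea pre-pigment library, Linea late replicate 2 or Rosa late replicate 2 (adjusted p of 0.0733 to 0.11).

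JC_0049178 was even within groups. It was at 857 and 594 scaled RPKM in Rosa pre-pigment wings, against 1049 and 610.1 in Linea pre-pigment wings. Its early ommochrome level was 1959 and 2325 scaled RPKM in Rosa wings, against 1938 and 1958 in Linea wings, and at late ommochrome at 2935 and 2821 scaled RPKM in Rosa wings, against 2609 and 2758 in Linea wings. The 3 stages did not overlap, and the level was higher at each later stage. The log2 difference of late against pre-pigment was 1.88 ± 0.40 (SE, adjusted p = 0.0312 by limma). The call was lost on leaving out any 1 of 9 libraries, namely both Linea libraries of each pupal stage, both Rosa late libraries and Rosa pre-pigment replicate 1 (adjusted p of 0.05 to 0.13). Its log2 difference stayed between 1.68 and 2.07 over all 16 such fits.

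JC_0091643 and JC_0092304 fell. JC_0091643 was at 11703 and 33167 scaled RPKM in Rosa pre-pigment wings, against 15322 and 24213 in Linea pre-pigment wings. At early ommochrome it was at 88.3 and 3109 scaled RPKM in Rosa wings, against 1777 and 1240.2 in Linea wings, and at late ommochrome at 72.5 and 1199.9 scaled RPKM in Rosa wings, against 328 and 265 in Linea wings. Every ommochrome-stage library thus lay below every pre-pigment library. The log2 difference of late against pre-pigment was -6.04 ± 1.04 (SE, adjusted p = 0.011 by limma), with an adjusted p of 0.0543 without Linea pre-pigment replicate 2. JC_0092304 was at 16.8 and 89.4 scaled RPKM in Rosa late ommochrome wings, against 197 and 182 in Linea late ommochrome wings, and at 2381 and 1937 scaled RPKM in Rosa pre-pigment wings, against 2504 and 2652 in Linea pre-pigment wings. Its log2 difference was -4.75 ± 0.66 (SE, adjusted p = 0.00317 by limma), a call kept in every alternative run. Its highest late library stood at 197 scaled RPKM and its lowest pre-pigment one at 1937.

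Over all of these calls the fit on the 8 compared libraries alone left 2 in late against pre-pigment, JC_0109911 and JC_0092304. Leaving out Linea pre-pigment replicate 2 gave 2 calls and leaving out Linea late replicate 2 gave 3. With the replicate number as a block, late against pre-pigment gained JC_0097190, with a log2 difference of -3.25 and a blocked adjusted p of 0.0417. Early against pre-pigment called 4 without Rosa pre-pigment replicate 2, adding JC_0091916, JC_0033741 and JC_0110484. It also called 4 without Rosa early ommochrome replicate 3, adding JC_0023670, JC_0109782 and JC_0091643.

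**Figure D4:**
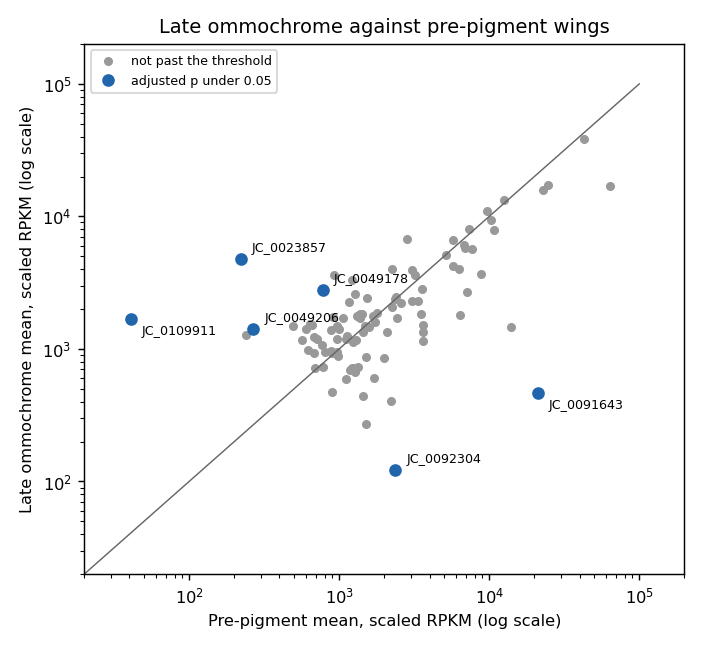
Mean scaled RPKM at late ommochrome (y axis, log scale) against that in pre-pigment wings (x axis, log scale) for the 100 transcripts, each mean over 4 libraries, with the line of equal means. The 6 blue points are the called transcripts, 4 above the line and 2 below it, and the grey points did not pass the threshold.

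By share of the 3 pupal stage means, the transcripts most concentrated in pre-pigment wings were JC_0091643 (91.3%), JC_0092304 (77.3%) and JC_0033741 (76.7%). Those most concentrated at early ommochrome were JC_0032795 (79.2%), JC_0032076 (64.3%) and JC_0064938 (58.2%). JC_0064938 was at 1478 and 5894 scaled RPKM in Rosa early ommochrome wings, against 4976 and 1321 in Linea early ommochrome wings, and its pre-pigment libraries numbered 1 were high (1941 in Rosa, 2933 in Linea) while those numbered 2 were low (168 and 126). Those most concentrated at late ommochrome were JC_0023857 (77.3%), JC_0109911 (58.0%) and JC_0049206 (57.2%). JC_0091643 and JC_0092304 were higher in every pre-pigment library than in any other pupal library. In the other 7 the libraries of the leading stage overlapped those of another pupal stage.

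The comparison of Rosa with Linea asks whether the most abundant transcripts differ between the seasonal morphs. None of the 100 passed the threshold between the morphs at any stage by limma. In larval discs 0 of the 100 were called (0.114% of all tested), with 0 higher (2.76%) and 3 lower (3.72%) in Rosa at an unadjusted p under 0.05. In pre-pigment wings 0 were called (0%), and 0 (4.86%) were below an unadjusted p of 0.05. At early ommochrome 0 were called (0.0127%), with 2 higher (2.06%) and 22 lower (3.52%) at an unadjusted p under 0.05. Of these 22, 15 are the transcripts low in the Rosa early libraries. At late ommochrome 0 were called (0.00633%), with 5 higher (3.49%) and 4 lower (1.86%) by the unadjusted p. Averaged over the pupal stages 0 were called (0.00633%), with 1 higher (2.09%) and 17 lower (3.3%) at an unadjusted p under 0.05, or 5 and 14 with RPKM as deposited. An F test on how the morph difference changed among the pupal stages called 0 (0%), with 23 (5.6%) below an unadjusted p of 0.05. The Rosa early libraries enter the pupal average and the F test too. A p that misses the threshold with 2 libraries per morph does not show that the morphs were alike.

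In larvae the lowest adjusted p of the set was that of JC_0016574. It was at 102.3 and 401 scaled RPKM in Rosa larvae, against 2305 and 995 in Linea larvae, with a log2 difference of -2.89 ± 0.70 (SE, adjusted p = 0.328 by limma). Both Rosa larval libraries lay below both Linea ones, and the difference ran from -3.90 to -1.91 as each library was left out. The value of -3.90 came without Rosa larva replicate 3, where 1 Rosa library is left and is assumed to vary like the other groups. Calls over all transcripts rose in that fit. In the pupal libraries the same transcript ranged only 2.23-fold. In pre-pigment wings JC_0049716 led, at 5422 and 2344 scaled RPKM in Rosa wings, against 9768 and 9694 in Linea wings, with a log2 difference of -1.45 ± 0.78 (SE, adjusted p = 1 by limma). JC_0091916 had a log2 difference of -3.31 ± 2.60 (SE, adjusted p = 1 by limma) in pre-pigment wings. Without Rosa pre-pigment replicate 2 it was -8.67, where the 1 Rosa library left is assumed to vary like the other groups. Calls over all transcripts rose in that fit as well.

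At late ommochrome JC_0097190 had the lowest adjusted p. It was at 14.3 and 263 scaled RPKM in Rosa wings, against 1587 and 2753 in Linea wings, with a log2 difference of -5.04 ± 1.15 (SE, adjusted p = 0.396 by limma). The Rosa libraries lay below the Linea ones without overlap, but the log2 difference ran from -7.09 to -2.99 as each library was left out. JC_0097189, whose identifier number is the next below, was at 59.8 and 402 scaled RPKM in Rosa late ommochrome wings, against 1325 and 1638 in Linea late ommochrome wings. At the stage before, JC_0097190 was at 1523 and 1434 scaled RPKM in Rosa early ommochrome wings, against 2559 and 2855 in Linea early ommochrome wings.

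At early ommochrome the median of the set lay lower in Rosa, though without a call. Of the 22 members lower in Rosa at an unadjusted p under 0.05, 15 are the transcripts described below. The median log2 difference of the 100 was -0.57, against -0.07 over all transcripts tested. It was 0.0048 without Rosa early ommochrome replicate 1 and -0.77 without replicate 3. With RPKM as deposited the median was 0.15, where the median of all transcripts shifted to 0.47. The unadjusted counts were then 12 higher and 20 lower, with no share of all transcripts given for that setting. With quantile normalization the median was -0.10, against 0.03 over all transcripts. JC_0032639 had the lowest adjusted p, at 30.1 and 84.2 scaled RPKM in Rosa wings, against 2054 and 2686 in Linea wings. Its log2 difference was -5.51 ± 0.81 (SE, adjusted p = 0.0651 by limma). It also led the pupal average, with a log2 difference of -1.90 ± 0.47 (SE, adjusted p = 0.588 by limma), and the F test, with an adjusted p of 0.275. JC_0091645 had a log2 difference of -6.08 ± 0.95 (SE, adjusted p = 0.0771 by limma). With a filter on a mean of at least 5 RPKM, which tests fewer transcripts, both reached an adjusted p of 0.0483.

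A group of transcripts was low in Rosa early ommochrome wings alone among the pupal groups. By a rule set after their values were seen, 15 of the 100 had a Rosa early ommochrome mean at least 4-fold below the mean of every other pupal group, against 1.55% of all transcripts tested. They were JC_0091645, JC_0047771, JC_0047853, JC_0047283, JC_0093127, JC_0041158, JC_0065043, JC_0056991, JC_0049279, JC_0044645, JC_0032639, JC_0110484, JC_0109782, JC_0033500 and JC_0048970. Their log2 differences of Rosa against Linea at early ommochrome lay between -7.80 and -4.67, with adjusted p-values of 0.0651 to 0.697 by limma. The rule used the same libraries, so these values are a description. A rule of 8-fold gave 15 (1.06%) and a rule of 2-fold gave 17 (3.46%). Without Rosa early ommochrome replicate 3 the number was 21, and without any other library 14 or 15. The higher Rosa early library lay at least 4-fold below the lowest other pupal library in 12 of the 100 (0.253% of all tested).

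JC_0091645, the highest of them, was at 10454 and 33631 scaled RPKM in Rosa pre-pigment wings, against 17605 and 28923 in Linea pre-pigment wings. Its early ommochrome level was 242 and 1026 scaled RPKM in Rosa wings, against 23008 and 49859 in Linea wings, and at late ommochrome at 14538 and 19021 scaled RPKM in Rosa wings, against 14949 and 14394 in Linea wings. Only the 2 Rosa early libraries fell outside the range from 10454 to 49859 scaled RPKM that held the other 10 pupal libraries. Larval levels were 671 and 204 scaled RPKM in Rosa larvae, against 231 and 585 in Linea larvae, a range that overlaps that of Rosa early ommochrome wings. JC_0047771 was at 232 and 469 scaled RPKM in Rosa early ommochrome wings, against 8351 and 22237 in Linea early ommochrome wings, and its pre-pigment and late libraries lay between 4812 and 21278. JC_0047853 was at 134 and 502 scaled RPKM in Rosa early ommochrome wings, against 5496 and 13594 in Linea early ommochrome wings, and its pre-pigment and late libraries lay between 3588 and 24977. In all 3 the gap separated the Rosa early libraries from every other pupal library.

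JC_0032639 was at 1372 and 3127 scaled RPKM in Rosa pre-pigment wings, against 3289 and 1952 in Linea pre-pigment wings, and at 2127 and 1339 scaled RPKM in Rosa late ommochrome wings, against 1019 and 2390.0 in Linea late ommochrome wings. JC_0110484 was at 34.5 and 82.7 scaled RPKM in Rosa early ommochrome wings, against 860.2 and 2333 in Linea early ommochrome wings, where both Rosa libraries lay below both Linea ones. JC_0065043 showed the largest ratio of the 15, with its lowest other pupal group mean 103-fold above the Rosa early mean of 29.3 scaled RPKM. It was at 747 and 7301 scaled RPKM in Rosa late ommochrome wings, against 6256 and 33.4 in Linea late ommochrome wings, so a Linea late library was as low as the Rosa early ones. Over the 15 this ratio ran from 11.1-fold to 103-fold, and JC_0041158, JC_0065043 and JC_0093127 were the 3 that missed the stricter rule on single libraries.

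Together the 15 held 0.194% and 0.625% of the summed RPKM in Rosa early ommochrome libraries, against 10.5% and 19.0% in Linea early ommochrome libraries. In pre-pigment wings they held 6.02% and 15.4% in Rosa, against 11.8% and 10.2% in Linea. At late ommochrome they held 14.2% and 9.93% in Rosa, against 8.34% and 12.7% in Linea. In larvae they held 0.516% and 0.136% in Rosa, against 0.179% and 0.392% in Linea, so the Rosa early share lay in or just above the larval range. Transcript by transcript, 3 of the 15 lay above all 4 of their own larval values in Rosa early replicate 1, and 14 of the 15 did so in replicate 3. The Rosa early mean was 0.436 to 4.10 times the larval mean over the 15 transcripts. The other 85 held 35.2% and 48.1% in Rosa early ommochrome libraries, against 39.3% and 37.8% in Linea ones.

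The stage steps average both morphs, so the Rosa early libraries enter both steps at this stage, and the steps share all 4 early libraries. JC_0091645 had a log2 difference of -2.32 ± 0.67 (SE, adjusted p = 0.196 by limma) in early against pre-pigment. In late against early it had 1.93 ± 0.67 (SE, adjusted p = 0.798 by limma). JC_0047771 had a log2 difference of -2.48 ± 0.71 (SE, adjusted p = 0.19 by limma) in early against pre-pigment and 2.39 ± 0.71 (SE, adjusted p = 0.741 by limma) in late against early. Neither was called in either step. In Linea alone JC_0091645 had a log2 difference of 0.59 ± 0.91 (SE, adjusted p = 1 by limma) in early against pre-pigment, and JC_0047771 had -0.03 ± 1.04 (SE, adjusted p = 1 by limma). Within early ommochrome, the Linea means of the 15 transcripts were 16.7 to 233 times their Rosa means. The scaling factors were 1.42 and 1.02 in the Rosa early libraries, against 0.859 and 0.616 in the Linea early ones and 0.578 to 1.17 over all 10 other pupal libraries. With RPKM as deposited the number of such transcripts was 15 as well.

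**Figure D5:**
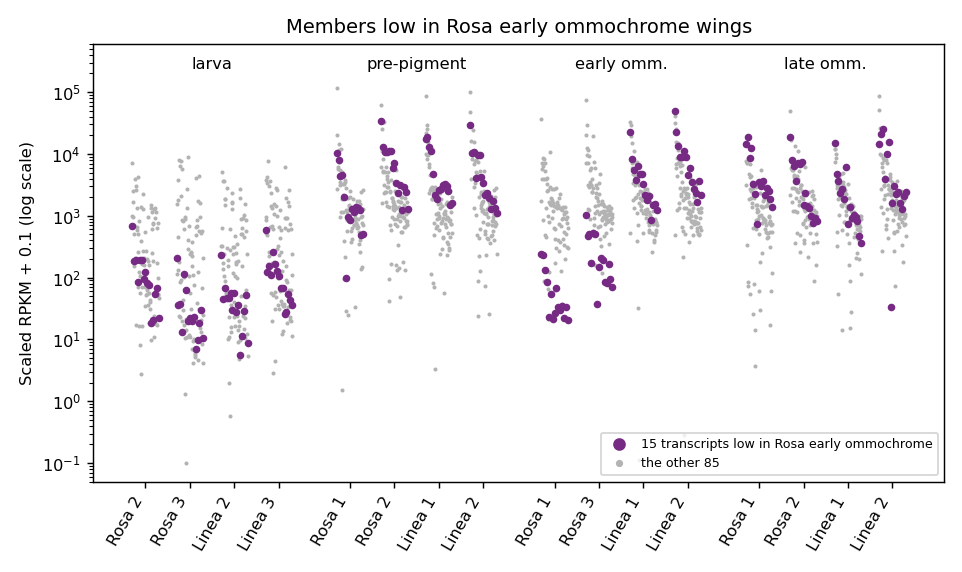
Scaled RPKM + 0.1 (y axis, log scale) of the 100 transcripts in every library (x axis, Rosa left of Linea within each stage), 1 point per transcript, with the 15 low in Rosa early ommochrome wings in purple and the other 85 in grey; within a library points run from left to right by pupal rank. In Rosa early replicate 1 the purple points lie between 20.4 and 242 scaled RPKM and in replicate 3 between 37.3 and 1026, and in the other 10 pupal libraries they lie among the grey ones, apart from single low points in Rosa pre-pigment replicate 1 and Linea late replicate 2.

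No other pupal group had as many. By the same 4-fold rule 4 of the 100 were low in Rosa late ommochrome wings (1.12% of all tested), namely JC_0049265, JC_0097190, JC_0097189 and JC_0102877. In Linea late wings 3 were low (3.65%), JC_0120641, JC_0023658 and JC_0048147. In Linea early wings 2 were low (0.62%), JC_0033741 and JC_0032076. In pre-pigment wings 0 were low in Rosa (2.46%) and 0 in Linea (1.49%). In the other direction only JC_0032795 had a group mean at least 4-fold above every other pupal group, in Rosa early wings (0.234% of all tested) and through a single library. These names were chosen after their values were seen.

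The identifiers of the set were not spread evenly over the assembly's numbering, another pattern found after the values were seen. Numbers from 49000 to 49999 held 18 of the 100 (3.37% of all transcripts tested), those from 91000 to 91999 held 11 (1.38%) and those from 23000 to 23999 held 8 (1.62%). Those from 109000 to 109999 held 7 (0.937%), and those from 32000 to 32999 held 4 (1.18%). The block from 47000 to 47999 has only 34 tested transcripts (0.215%) and held 4 members. Of its members, JC_0047771, JC_0047853 and JC_0047283 are among the 15 low in Rosa early ommochrome wings. The sources used here do not say what the numbers encode. Some members have nearly adjoining numbers, as do JC_0091643 and JC_0091645, JC_0091841 and JC_0091843, JC_0097189 and JC_0097190, JC_0109881 and JC_0109883, and JC_0102877, JC_0102879 and JC_0102881. If such transcripts are parts or near-identical copies of a gene, the authors' counting could have split reads between them, so the single levels of these 11 are uncertain. They did not share 1 profile. JC_0091643 was at 1777 and 1240.2 in Linea early ommochrome wings and JC_0091645 at 23008 and 49859 in the same libraries, while in pre-pigment wings the lowest library of JC_0091643 was at 11703 and that of JC_0091645 at 10454. JC_0097189 and JC_0097190 did move together at late ommochrome, both being lower in both Rosa libraries than in either Linea library.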

How the data were processed

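Hind wing polyA RNA was amplified to cDNA with the Ovation system, sheared and read as 75 or 100 bp pairs, per the labels' protocols. The authors deposited RPKM values on transcripts of their own assembly. Bowtie 0.12.7 is named in the submitters' processing notes, while the estimator and any filter are not given in the sources. RPKM keeps no read count, so no counting interval is given, and since it is relative to a library's reads, a few very high transcripts can lower the values of all others. For that reason each library was divided by its median ratio to the geometric mean of those 7126 transcripts that reached 1 RPKM throughout. Of 20 samples in the labels, 4 (Rosa larva replicate 1, Rosa early ommochrome replicate 2, Linea larva replicate 1 and Linea early ommochrome replicate 3) were not analysed here.

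A transcript was tested if it reached 1 RPKM in 2 or more libraries, as 15798 of 16251 did. Log2(scaled RPKM + 1) was fitted with limma 3.58.1 (R 4.3.3) as 8 group means over the 16 libraries together, leaving 8 residual degrees of freedom. Variances were moderated with an intensity trend, and p-values were adjusted by Benjamini-Hochberg over all transcripts kept. Because of the pseudocount, log2 differences of low transcripts come out too small. The scripts were tested on simulated data. The members and the rules were chosen with earlier results of these data known.

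The transcripts named are the 10 highest, those at ranks 99 and 100 and the next 2, up to 5 called in each direction per comparison or else that with the lowest adjusted p, the 5 highest and 5 lowest in larvae, the 5 most and 5 least dominated by a single library and the 3 most concentrated in each pupal stage. Any other was chosen after its values were seen.

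Replicate numbers recur between morphs. Deviations of same-numbered libraries correlated between the morphs at 0.17 in larvae, 0.38 in pre-pigment wings and 0.17 at late ommochrome, and early ommochrome shares only 1 number. By a rule of over 0.1 in each, the numbers were treated as pairing the libraries in the block fit. Each correlation rests on a single difference between replicates in each morph, so it cannot show that the libraries were paired. The main fits leave this pairing out, so their SEs and p-values ignore it, and the replicate block is an alternative fit. What a number marks is not given in the labels. As alternatives, values were left unscaled or quantile normalized, the pseudocount was 0.1, the low-value filter was dropped or set to a mean of 5 RPKM, and the replicate number entered as a block. Fits were also made on the compared libraries alone and without each library, stage steps were fitted in Linea alone, and members were taken by other rankings or as the 50 or 200 highest. At an unadjusted p, shares of all transcripts are given for the main fits and for Linea alone only. Unadjusted counts in other settings therefore have no share to be read against.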

Additional observations from a re-analysis of the deposited data

Results flagged for a closer look

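For the named transcripts, the 4 libraries of a stage were searched for a single library far from the other 3, by the gap to the nearest of them as a fraction of the whole range, both taken on the log2(scaled RPKM + 1) scale. Of 148 such sets and 12 sets of library shares, 12 sets of transcript values passed Dixon's 95% critical value for 4 samples, where chance would flag about 1 in 20. The 4 values span both morphs, so such a library may also differ by morph. Without logs 22 of the 148 sets would pass.

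In larvae, JC_0091843 was at 761.7 scaled RPKM in Rosa larva replicate 2, against 209 to 242 in the other larval libraries (gap fraction 0.889). JC_0023857 was at 178 in Linea larva replicate 3, against 8.08 to 10.8 (0.911).

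In pre-pigment wings both outlying values came from Linea replicate 1. JC_0091843 was at 534 there, against 706 to 732 in the other 3 libraries (0.885), and JC_0110484 was at 3036, against 1222 to 1340.1 (0.898).

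At early ommochrome, Rosa replicate 3 held 3 of the outlying values. JC_0048950 was at 74256 in it, against 32115 to 36753 in the others (0.839). JC_0049178 was at 2325, against 1938 to 1959 (0.94), and JC_0023658 at 319, against 1222 to 1377 (0.918). JC_0091113 was low in Rosa replicate 1, at 5805 against 24848 to 29837 (0.888). JC_0109911 was low in Linea replicate 1, at 547 against 1347 to 1459.8 (0.918). Linea replicate 2 held a high JC_0023857, at 2485 against 707 to 784 (0.918), and a high JC_0091916, at 7405 against 3201 to 3427 (0.919).

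At late ommochrome JC_0091645 was high in Rosa replicate 2, at 19021 against 14394 to 14949 (0.864).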

How the results depend on the processing

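No named difference reversed its direction in a fit to both morphs. The median log2 difference of the 100 did change sign with RPKM as deposited, to 0.15 in place of -0.57 for Rosa against Linea at early ommochrome, to 0.31 in place of -0.11 in early against pre-pigment and to 0.42 in place of -0.06 in late against pre-pigment, where the median of all transcripts was 0.47, 0.36 and 0.35. Without Rosa early ommochrome replicate 1 the first of these was 0.0048. Rosa against Linea at late ommochrome also changed sign with RPKM as deposited, to 0.10, with 0.17 over all transcripts. Quantile normalization gave 0.13 in early against pre-pigment and 0.18 in late against pre-pigment, with -0.03 and 0.0028 over all transcripts. For Rosa against Linea it gave -0.10 at early ommochrome, 0.08 in larvae, 0.07 in pre-pigment wings and 0.0045 in the pupal average. In Linea alone, a fit added after the data were seen, early against pre-pigment called 0 in place of 1, and JC_0110484 reversed in late against early, at -0.17 in place of 2.38. The replicate block, which leaves 6 residual degrees of freedom, added JC_0097190 to late against pre-pigment (7 calls in place of 6, blocked adjusted p of 0.0417), took away JC_0086963 in pre-pigment against larvae and changed no other call named here. A mean of at least 5 RPKM, which tests fewer transcripts, called 2 between the morphs at early ommochrome. Quantile normalization called 2 in early against pre-pigment, adding JC_0032639 (-2.75, adjusted p = 0.0378 by limma), and in late against pre-pigment it gave 9 higher and 9 lower at an unadjusted p under 0.05. The fit on the compared libraries alone called 2 in late against pre-pigment. The causes were not tested. As each library was left out, calls ranged from 0 to 1 between the morphs in larvae and in pre-pigment wings, from 1 to 4 in early against pre-pigment and from 2 to 8 in late against pre-pigment. They stayed at 0 between the morphs at early and late ommochrome, in the pupal average, in late against early and in the F test. With the 50 or 200 highest transcripts, the share of summed RPKM was 10.2% or 23.2% in larvae, 47.4% or 61.0% in pre-pigment wings and 38.2% or 54.0% at late ommochrome, and 19 or 49 were among the 100 highest of the larvae. Ranking by the median kept 94 of the 100, by scaled RPKM 99, by the geometric mean 93 and by ranks within stages 94. The depth of each library is unknown, and 2 libraries per group limit every test.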
